A study of Mus musculus with 6 samples.

Results

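The genes described here are 10 adaptors, kinases and partner proteins that carry signals from Toll-like receptors (TLRs) to the transcription factor IRF5. They are Myd88, Tirap, Ticam1, Ticam2, Irak1, Irak2, Irak3, Irak4, Traf6 and Slc15a4, chosen by gene symbol for their place in the pathway, when earlier results of these data were already known. Each symbol matched 1 of the 44678 Ensembl gene identifiers in the count files, and all 10 passed the filter on low counts, as did 13024 genes in all. The study sequenced untreated CD8a+ leukocytes from the spleen of wild type (WT) mice and of miR-144/451 knockout (KO) mice, with 3 libraries per genotype. In the KO mice the genes of miR-144 and miR-451 are deleted together, WT and KO mice were on the C57BL/6J background, and the methods give 1 range of adult age for every animal of the study. Nothing in the labels says whether the 3 libraries of a genotype came from separate mice, so p-values measure the spread between these libraries.

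TLRs sense microbial molecules at the cell surface or inside endosomes, and their cytoplasmic domains recruit adaptor proteins. Most TLRs and the receptors for IL-1 and IL-18 use MyD88, which assembles IRAK kinases and then the ubiquitin ligase TRAF6, whereas TLR3 and internalized TLR4 use TRIF, the product of Ticam1. IRF5 is activated in the MyD88 branch, where it drives genes of inflammatory cytokines, and in B cells, monocytes and dendritic cells (DCs) it is expressed at rest. CD8+ T cells use many of the same adaptors and kinases for signals of IL-18.

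The deleted microRNAs are shown first because their deletion defines the KO genotype. Their mature forms in RefSeq (GRCm38.p6) are encoded on the plus strand of chromosome 11, miR-144-5p at chr11:78073010-78073032, miR-144-3p at chr11:78073047-78073066 and miR-451a at chr11:78073186-78073207. Each is printed 5′ to 3′ with its seed, bases 2 to 8, in capitals.
mmu-miR-144-5p: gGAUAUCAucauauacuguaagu
mmu-miR-144-3p: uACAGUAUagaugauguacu
mmu-miR-451a: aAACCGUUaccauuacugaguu
The 3 seeds differ from each other. The 7 letters complementary to a seed are TGATATC for miR-144-5p. They are ATACTGT for miR-144-3p. For miR-451a they are AACGGTT. These letters were searched on the sense strand of the annotated 3′-UTRs of the 10 genes in GENCODE M21 (GRCm38), and matches were found in Traf6 and Irak3. The Traf6 3′-UTR of 4170 nt holds the letters for miR-144-3p at 2 places, chr2:101699255-101699261 and chr2:101701207-101701213 on the plus strand. An annotated Irak3 3′-UTR of 1067 nt holds the letters for miR-144-5p once, at chr10:120142092-120142098 on the minus strand. These windows of 30 bases are shown, with the 7 matching letters in capitals, because they are the only stretches in annotated 3′-UTRs of the 10 genes that match a deleted seed.
Traf6 site 1: tgcatggtcttATACTGTagttgtttccca
Traf6 site 2: ctgtttttagcATACTGTgcatgggcctgg
Irak3 site: tatctctcataTGATATCtgttgcgtagtg
At the first Traf6 site the match is followed by an A, opposite base 1 of the microRNA, and at the other sites it is not. The longest 3′-UTR of 12.3% of the 20702 genes with an annotated 3′-UTR holds the miR-144-3p letters, and the share is 29.6% among the 2105 genes whose 3′-UTR is within 25% of the Traf6 length, with 5.94% holding them at 2 or more places. The miR-144-5p letters are in 6.58% of all these genes and the miR-451a letters in 1.97%. In Irak3, 2 of 3 transcripts with a 3′-UTR carry the letters, and its longest 3′-UTR of 1504 nt, which belongs to another transcript, does not. A match describes letters in an annotated sequence and does not show that a microRNA bound there.

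Libraries held between 8143971 and 8876570 counts, at which 3 counts are worth between 0.342 and 0.372 CPM (read counts scaled to a common library total with TMM factors), a floor that covers counting error only. Mir144 and Mir451a had 0 counts in each library, WT included, so these counts cannot check the deletion. The labelled cell type was present, with Cd8a and Cd8b1 together between 1237 and 1794 CPM in WT and between 779 and 1715 CPM in KO libraries. Marker genes of B cells were also abundant. The 8 B cell markers summed to 2707, 1596 and 1542 CPM in WT libraries 1 to 3 and to 2839, 3091 and 1330 CPM in KO libraries 1 to 3, and none was at 0 in any library. WT library 1 and KO libraries 1 and 2 thus held more B cell RNA than the other 3 libraries, and the same 3 were highest for each of the 8 B cell and 7 neutrophil markers and for 7 of the 8 monocyte markers. The other monocyte marker, Ly6c2, was highest in KO library 3 at 541 CPM and lowest in KO library 2 at 295 CPM. A lower number of cells of a type and less RNA per cell cannot be told apart in such bulk samples.

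None of the 10 genes differed between KO and WT libraries beyond the spread of the replicates. With edgeR's quasi-likelihood test and Benjamini-Hochberg adjustment over 13024 genes, 0 of 10 had an adjusted p-value under 0.05, where 0.0307% of all genes did. Before adjustment, 0 of 10 were under 0.05 as well, against 6.25% of all genes. DESeq2 also called 0 of 10, where it called 0.463% of all genes with an adjusted p-value and 5.17% before adjustment. The same count with limma voom was 0 of 10, against 0.023% and 5.83% of all genes. The KO and WT ranges overlapped for all 10 genes, whereas they were apart for 11.5% of all genes. The fitted log2 fold change of KO over WT was above 0 for 9 of the 10, as for 50.6% of all genes, and its median was 0.19 over the 10 and 0.0030 over all genes tested. These values moved with single libraries and with cell markers. The median was 0.064 with 7 of 10 above 0 without KO library 2, 0.33 without KO library 3, and 0.011 with 5 of 10 above 0 when a marker covariate was added.

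**Figure D1:**
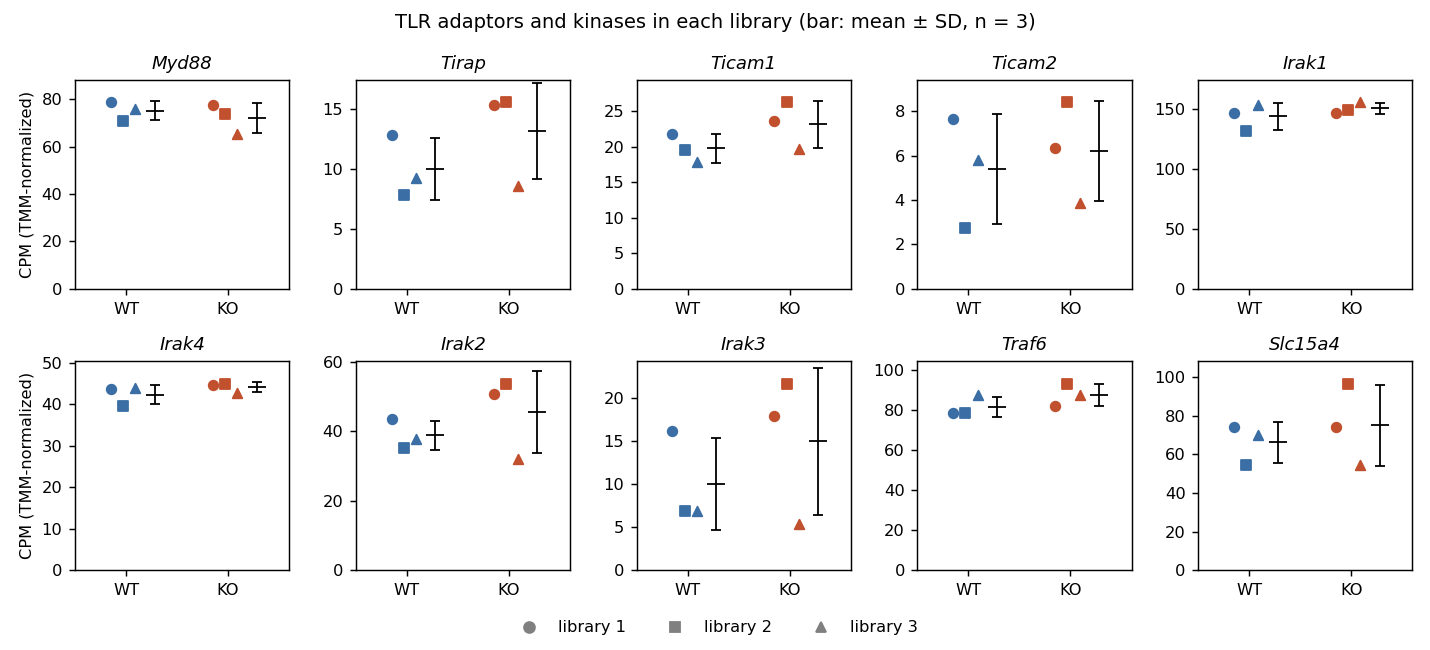
Normalized CPM (y axis, from 0) of each of the 10 genes in the 3 WT (blue) and 3 KO (red) libraries, with circles, squares and triangles for libraries 1, 2 and 3 and black bars for the mean ± SD (n = 3). Points of WT and KO overlap in every panel, tightly for Irak1, Irak4 and Traf6 and with a wide spread for Irak3, Tirap and Ticam2.

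The first group of genes are the adaptors of the MyD88 branch. Myd88 (ENSMUSG00000032508, minus strand, chr9:119335934-119341411) encodes the adaptor that joins the receptor to IRAK4 through death domains. It held 78.7, 70.8 and 75.8 CPM in WT libraries 1 to 3 and 77.6, 73.6 and 65.3 CPM in KO libraries 1 to 3. The lowest value was that of KO library 3, and the others of both genotypes were intermixed. The WT mean was 75.1 ± 3.97 CPM and the KO mean 72.2 ± 6.31 CPM (SD, n = 3 each). Myd88 was the one gene of the 10 with a fitted log2 fold change below 0, at -0.058 (standard error 0.094, adjusted p = 0.918). The 95% confidence interval of that fold change ran from -0.27 to 0.16, the lower end of which is 0.827 times the WT level. Exons of Myd88 and of Acaa1a, a gene of the other strand, overlap by 290 bp, where reads of either could be assigned to the wrong gene if strand was not used. The same holds for 395 bp of Irak4 with Twf1, 192 bp of Irak3 with Tmbim4, 427 bp of Slc15a4 with Gm43474 and 411 bp of Irf5 with Tnpo3. Irak2 exons overlap Gm43963 of the other strand by 196 bp. Gm43963 is not among the counted identifiers, so only its reads could be assigned to the wrong gene there.

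Tirap (ENSMUSG00000032041, minus strand, chr9:35184551-35200291), also known as MAL, encodes the bridging adaptor that places MyD88 under TLR2 and TLR4 at the membrane. Its level was 12.9, 7.86 and 9.29 CPM in the WT libraries and 15.4, 15.6 and 8.57 CPM in the KO libraries, in the order 1 to 3. KO libraries 1 and 2 lay above all WT libraries, while KO library 3 lay within the WT range. Tirap had a fitted log2 fold change of 0.40 (standard error 0.29, adjusted p = 0.841), with a 95% interval from 0.835 to 2.07 times the WT level. Tirap exons share 446 bp with the antisense gene Gm39318.

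Ticam1 and Ticam2 encode the adaptors of the other branch. Ticam1 (ENSMUSG00000047123, minus strand, chr17:56269319-56276786) encodes TRIF, which serves TLR3 directly. Its level was 21.9, 19.6 and 17.8 CPM in WT and 23.6, 26.3 and 19.7 CPM in KO libraries 1 to 3. KO libraries 1 and 2 were again the highest of the 6, and KO library 3 lay between WT libraries 1 and 2. Ticam1 had the smallest unadjusted p-value of the 10 genes, 0.174 (log2 fold change 0.23, standard error 0.15, adjusted p = 0.828). The two-sided exact permutation test over the 6 libraries gave p = 0.2, where 3 libraries against 3 allow no p below 0.1.

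Ticam2 (ENSMUSG00000056130, minus strand of chromosome 18) encodes TRAM, which links TLR4 to TRIF on endosomes, and was the gene with the fewest reads. Counts were 67, 24 and 47 in WT libraries 1 to 3 and 55, 70 and 34 in KO libraries 1 to 3, which gave means of 5.39 ± 2.48 CPM for WT and 6.21 ± 2.26 CPM for KO (SD, n = 3 each). The values of the genotypes were fully intermixed, with WT library 2 lowest and KO library 2 highest. The 95% interval of its log2 fold change ran from -0.76 to 1.17 around 0.20 (adjusted p = 0.937), or from 0.590 to 2.24 times the WT level. Over 838 bp its exons are shared with Tmed7 on the same strand, a gene with 789 to 1007 counts per library, so the share of reads assigned to Ticam2 there is uncertain.

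The kinases Irak1 and Irak4 varied least between libraries. IRAK4 is the kinase that MyD88 recruits first, and IRAK1 is the kinase it phosphorylates. Irak4 (ENSMUSG00000059883, plus strand, chr15:94543643-94581815) held 43.6, 39.6 and 43.8 CPM in WT and 44.7, 45.0 and 42.9 CPM in KO libraries 1 to 3. Irak1 (ENSMUSG00000031392, minus strand, chrX:74013914-74023918) held 147, 131 and 153 CPM in WT and 147, 149 and 156 CPM in KO libraries 1 to 3. For both genes WT library 2 was lowest and the remaining libraries lay close together, so that the highest value was 1.14 times the lowest for Irak4 and 1.18 times for Irak1. The coefficient of variation over the 6 libraries was 4.49% for Irak4, where counting error alone gives 5.20%, and 5.79% for Irak1, where it gives 2.82%. Log2 fold changes were 0.061 (standard error 0.089, 95% interval -0.14 to 0.27, adjusted p = 0.906) for Irak4 and 0.068 (standard error 0.086, 95% interval -0.13 to 0.26, adjusted p = 0.895) for Irak1. These intervals bound the KO level to between 0.905 and 1.20 times WT for Irak4 and between 0.914 and 1.20 times for Irak1.

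Irak2 and Irak3 encode the family members regarded as pseudokinases. IRAK2 prolongs signaling downstream of IRAK4, whereas IRAK3, also called IRAK-M, dampens it and is known mainly from monocytes and macrophages. Irak2 (ENSMUSG00000060477, plus strand, chr6:113638467-113695026) held 43.5, 35.3 and 37.8 CPM in WT and 50.7, 53.8 and 32.0 CPM in KO libraries 1 to 3. KO library 3 was the lowest of all 6 libraries while KO libraries 1 and 2 were the highest, so the KO range enclosed the WT range. The log2 fold change was 0.23 (standard error 0.19, adjusted p = 0.870).

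Irak3 (ENSMUSG00000020227, minus strand, chr10:120141648-120202130) had the largest fitted difference and the largest spread. Its level was 16.2, 6.95 and 6.94 CPM in WT libraries 1 to 3 and 17.9, 21.7 and 5.37 CPM in KO libraries 1 to 3. WT library 1 stood with KO libraries 1 and 2, and KO library 3 stood with WT libraries 2 and 3, below both. The highest library was 4.04 times the lowest, and the coefficient of variation of 55.4% was several times the 9.67% that counting error gives. The difference between the means was smaller than the SD of either genotype, 5.33 CPM for WT and 8.55 CPM for KO (n = 3 each). Its log2 fold change of 0.58 had a standard error of 0.52 and a 95% interval from -0.61 to 1.77 (adjusted p = 0.870). The 2 transcripts with the miR-144-5p letters printed above could not be read apart from the other, since counts are given per gene.

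Traf6 (ENSMUSG00000027164, plus strand, chr2:101678429-101701669) encodes the ubiquitin ligase that receives the signal from the IRAK kinases and whose ubiquitin chains recruit the TAK1 kinase complex. It is the gene with 2 miR-144-3p matches in the windows printed above. Its level was 78.7, 78.7 and 87.6 CPM in WT and 82.0, 93.4 and 87.5 CPM in KO libraries 1 to 3. KO library 2 was highest, KO library 3 and WT library 3 were nearly equal, and WT libraries 1 and 2 were lowest. The means, 81.7 ± 5.12 CPM for WT and 87.6 ± 5.68 CPM for KO (SD, n = 3 each), lay slightly more than 1 SD apart. Traf6 had a fitted log2 fold change of 0.10 (standard error 0.088, adjusted p = 0.870), whose 95% interval from -0.099 to 0.30 bounded the KO level to between 0.933 and 1.24 times WT.

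Slc15a4 (ENSMUSG00000029416, minus strand, chr5:127595664-127632897) encodes an endolysosomal transporter that, with its partner TASL, brings IRF5 to the membrane from which endosomal TLRs signal. Its level was 74.4, 54.4 and 69.9 CPM in WT libraries and 74.2, 96.6 and 54.6 CPM in KO libraries, in the order 1 to 3. KO library 2 stood alone at the top, and KO library 3 was level with the lowest WT library. The log2 fold change was 0.18 (standard error 0.20, 95% interval -0.29 to 0.65, adjusted p = 0.884).

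Levels were compared between genes after division by exon length. Irak1 and Myd88 were the most abundant, with means over the 6 libraries of 31.2 and 28.6 CPM per kb of exon, above 87.7% and 86.4% of the tested genes. A gap followed to Slc15a4 at 13.3, Traf6 at 10.7, Irak2 at 9.56, Irak4 at 8.62 and Ticam1 at 7.17 CPM per kb. Neighbours within this middle group had overlapping ranges, as did Irak1 and Myd88, although Irak1 was above Myd88 and Irak4 above Ticam1 in each of the 6 libraries. Irak3 at 3.40 and Tirap at 2.35 CPM per kb also overlapped each other and lay below Ticam1 in every library. Ticam2 was lowest at 1.002 CPM per kb, above 12.6% of the tested genes, and its range did not reach that of Tirap. The order therefore placed the shared adaptor and the first substrate kinase of the MyD88 branch on top, and both membrane bridging adaptors, Tirap and Ticam2, at the bottom.

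**Figure D2:**
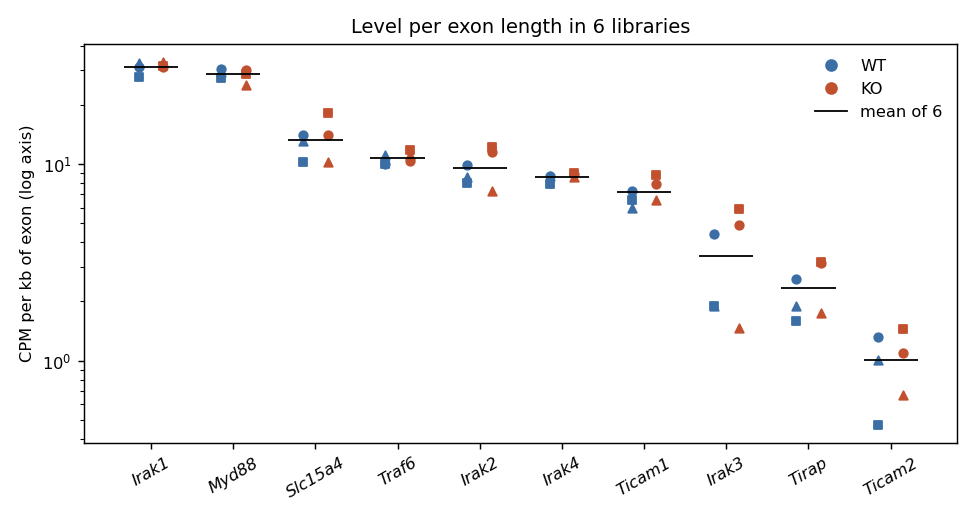
CPM per kb of exon (log y axis) for the 10 genes in order of their mean, with WT libraries in blue, KO libraries in red, circles, squares and triangles for libraries 1, 2 and 3, and a black line at the mean of 6. Means run from 31.2 for Irak1 to 1.002 for Ticam2, and the distance between the means of Myd88 and Slc15a4 exceeds the range of either gene.

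The genes fell apart in how they varied between libraries of the same genotype. WT library 1 and KO libraries 1 and 2 held the 3 highest values of 6 genes, namely Tirap, Ticam1, Ticam2, Irak2, Irak3 and Slc15a4. These were the same 3 libraries with the highest sums of B cell, monocyte and neutrophil markers, and 13.7% of all tested genes had the same 3 on top. T cell markers other than those of CD4 T cells ran the other way. The 9 T cell markers summed to 3456, 3173 and 2554 CPM in WT library 1 and KO libraries 1 and 2, and to 4536, 4262 and 4264 CPM in WT libraries 2 and 3 and KO library 3. Cd8a and Cd8b1 were likewise lowest in sum in the first 3, at 1237, 1127 and 779 CPM. The 4 CD4 T cell markers were instead highest in sum in these 3, at 148, 143 and 146 CPM. Their sums were 89.5, 89.4 and 77.5 CPM in WT libraries 2 and 3 and KO library 3. These 3 libraries with the most B cell RNA were highest for 3 of the 4 CD4 T cell markers and 3 of the 4 NK cell markers. All 9 T cell markers had log2 fold changes below 0, where 50.6% of all genes were above 0. In edgeR's test 1 of the 9 had an unadjusted p-value under 0.05 and 0 an adjusted one, against 6.25% and 0.0307% of all genes. The part of the T cell markers in the values of the 6 genes was not tested. Myd88, Irak1, Irak4 and Traf6 did not have WT library 1 and KO libraries 1 and 2 as their 3 highest. Their highest values were 1.14 to 1.21 times their lowest, against 1.47 to 4.04 times for the 6 genes above. The 8 monocyte markers summed to between 1103 and 1809 CPM in WT and between 1122 and 1896 CPM in KO libraries, and the 7 neutrophil markers to between 319 and 998 CPM and between 415 and 1179 CPM. The 5 red pulp macrophage markers, whose KO sums of 467 to 1228 CPM overlapped the WT sums of 321 to 483 CPM only in KO library 3, were highest in KO libraries 2 and 1. The 7 erythroid markers summed to 2573 CPM in KO library 2 and to between 237 and 804 CPM in the other 5 libraries. None of these markers was at 0 in any library.

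**Figure D3:**
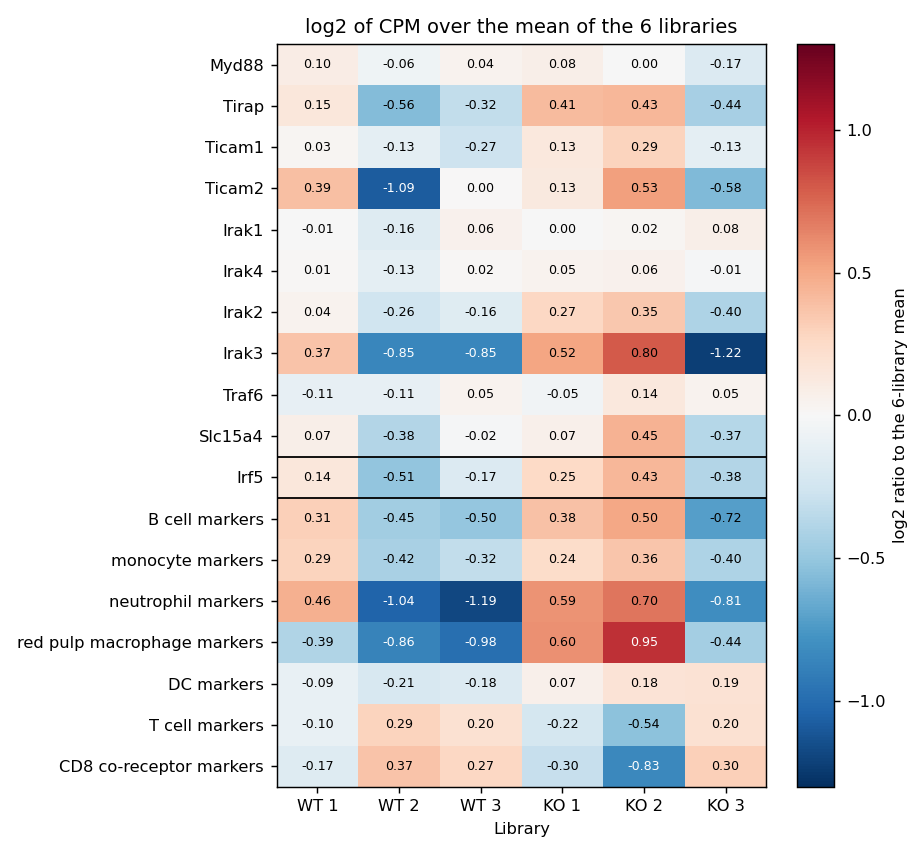
Heat map of log2 CPM relative to the mean of the 6 libraries (columns) for the 10 genes, Irf5 and the summed markers of 7 cell types (rows), with red above and blue below the mean and the value printed in each cell. Irak3 runs from -1.22 in KO library 3 to 0.80 in KO library 2, the order of the B cell markers, which run from -0.72 to 0.50, whereas Irak1 stays between -0.16 and 0.08.

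When the mean log2 level of the B cell, monocyte and DC markers was added as a covariate, the 5 of 10 genes above 0 compared with 49.3% of all genes. This covariate held none of the red pulp macrophage or neutrophil markers. Irak3 was then at -0.17 (standard error 0.18) on the log2 scale, Irak2 at -0.012 (standard error 0.11), Slc15a4 at -0.049 (standard error 0.13) and Ticam2 at -0.18 (standard error 0.32). Irak1 and Traf6 stayed at 0.075 and 0.11. No gene of the 10 had an adjusted p-value under 0.05 in this fit either, the lowest being 0.862 for Myd88, and 0 had an unadjusted one, where 0.0921% and 6.37% of all genes did. For Irak2, Irak3, Slc15a4 and Ticam2 the sign thus differed between the fits with and without the covariate.

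Single libraries decided the size of several differences. Without KO library 3, the log2 fold change reached 0.96 (standard error 0.36) for Irak3, 0.61 (standard error 0.24) for Tirap and 0.41 (standard error 0.12) for Irak2, and these 3 genes had unadjusted p-values under 0.05, against 14.1% of all genes in that fit. Their adjusted p-values were 0.295, 0.307 and 0.212, and 0 of 10 genes were called, where 0.707% of all genes were. The summed B cell markers of the 2 KO libraries left in that fit were 2839 and 3091 CPM, both above the 3 WT libraries, and their part in these differences was not tested. Without WT library 1 the log2 fold change of Irak3 was 1.11, and before adjustment 0 of 10 genes were under 0.05, while 9.25% of all genes in that fit were. Each of the other omissions made the differences of Irak3, Irak2 and Tirap smaller. Irak3 was at 0.21 without KO library 2, 0.41 without KO library 1, 0.37 without WT library 2 and 0.36 without WT library 3, and without KO library 2 Irak2 was at 0.089 and Tirap at 0.26.

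**Figure D4:**
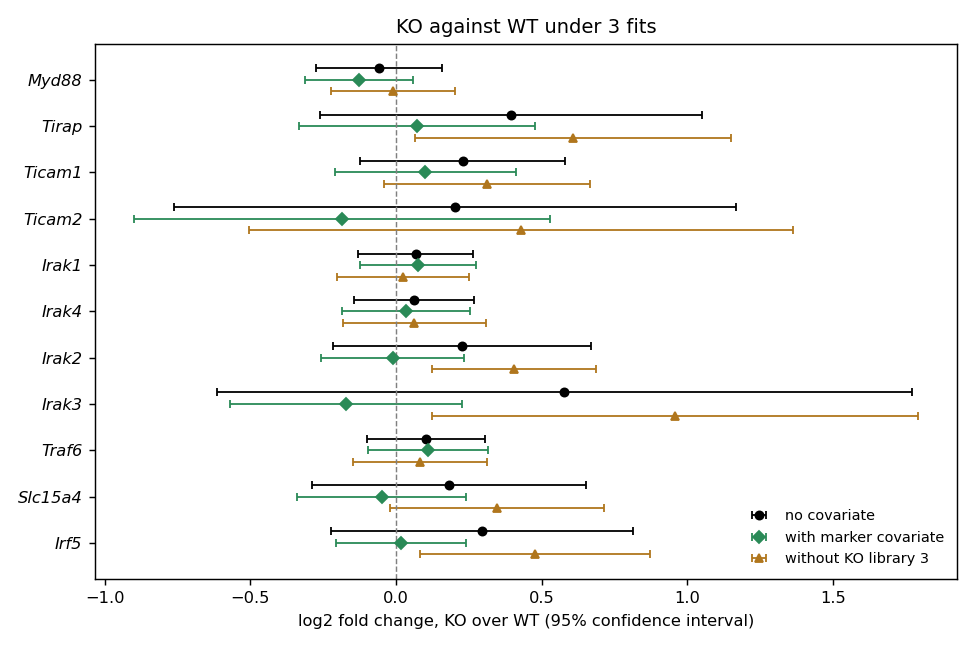
Log2 fold change of KO over WT (x axis) with its 95% confidence interval for the 10 genes and Irf5 (y axis), without a covariate (black circles), with the marker covariate (green diamonds) and without KO library 3 (brown triangles). Intervals of Irak1, Irak4, Traf6 and Myd88 stay narrow and include 0 in all 3 fits, whereas Irak3 moves from -0.17 to 0.96.

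Irf5, the factor that these proteins activate, followed the order of the 6 variable genes. Its level was 112, 71.3 and 90.0 CPM in WT libraries 1 to 3 and 121, 136 and 77.9 CPM in KO libraries 1 to 3, with WT library 1 and KO libraries 1 and 2 on top. The 95% interval of its log2 fold change ran from -0.22 to 0.81 around 0.29 (adjusted p = 0.851), and with the marker covariate from -0.20 to 0.24 around 0.017. Without KO library 3 it ran from 0.082 to 0.87 around 0.48 (adjusted p = 0.273), which excludes 0 before adjustment, and the lowest value with 1 library left out was 0.13, without KO library 2.

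The neighbours of these proteins in the pathway were read from lists written by hand. Of 24 kinases, ligases and scaffolds that act next to them, 23 were matched and tested, the symbol Tasl being unmatched. In edgeR's test 0 of the 23 had an adjusted p-value under 0.05 and 0 an unadjusted one, against 0.0307% and 6.25% of all genes. A log2 fold change above 0 was found for 14 of the 23, against 50.6% of all genes, and the median was 0.011. The most abundant were Ikbkb, the IκB kinase subunit, at 324 ± 18.8 CPM in WT and 327 ± 6.82 CPM in KO (SD, n = 3), followed by the ubiquitin ligase genes Peli1 and Rbck1, with log2 fold changes of -0.080 and -0.095. Of 14 inhibitors, 12 were tested, with 6 on either side of 0, where 50.6% of all genes were above 0, and a median of -0.0088. None of the 12 had an adjusted p-value under 0.05, against 0.0307% of all genes. The most abundant inhibitor was Tnfaip3, which encodes the deubiquitinase A20, at 821 CPM over the 6 libraries (log2 fold change -0.062, standard error 0.16). Inpp5d, a lipid phosphatase gene, and Trim30a had log2 fold changes of 0.17 and 0.26. Tnip1, which encodes a partner of A20 and was singled out after its values were seen, was the 1 inhibitor of 12 with an unadjusted p-value under 0.05, against 6.25% of all genes. It held 137, 149 and 137 CPM in WT and 185, 155 and 177 CPM in KO libraries 1 to 3, so that the ranges were apart (log2 fold change 0.29, standard error 0.093, adjusted p = 0.712).

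Among 18 TLRs and IL-1 family receptors that use the adaptors, 17 were tested. In edgeR's test 0 of the 17 had an adjusted p-value under 0.05, against 0.0307% of all genes. The median log2 fold change was 0.22, with 13 of 17 above 0, against 50.6% of all genes. The 3 most abundant were Il18r1 and Il18rap, the chains of the IL-18 receptor, and Tlr1, with means over the 6 libraries of 98.3, 85.6 and 98.0 CPM and log2 fold changes of -0.080, 0.10 and -0.10. Tlr3, whose product signals through TRIF, and Tlr11, whose product signals through MyD88, were the 2 of 17 with unadjusted p-values under 0.05, against 6.25% of all genes, and were named after their values were seen. Their ranges were apart, as were those of 11.5% of all genes. Tlr3 had 10.5, 10.7 and 8.67 CPM in WT and 13.1, 11.8 and 16.0 CPM in KO libraries 1 to 3 (adjusted p = 0.786), and Tlr11 had 8.88, 7.97 and 7.68 CPM and 12.01, 10.8 and 18.2 CPM (adjusted p = 0.712). Both were highest in KO library 3 and, among KO libraries, lowest in KO library 2, unlike the 6 variable adaptors and kinases. The 7 DC markers summed to 236, 254 and 257 CPM in KO libraries 1 to 3 and to 211, 194 and 199 CPM in WT libraries 1 to 3, so these sums were apart. Of the 7, Xcr1, Clec9a and Flt3 had the order of both receptors among KO libraries, with 33.6, 38.9 and 51.0 CPM in KO library 3 and 16.4, 17.2 and 39.2 CPM in KO library 2, and the other 4 did not. All 7 DC markers had log2 fold changes above 0, against 50.6% of all genes. In edgeR's test 3 of the 7 had an unadjusted p-value under 0.05 and 0 an adjusted one, against 6.25% and 0.0307% of all genes. The part of the DC markers in the receptor values was not tested.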

How the data were processed

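Each library's file, as deposited, gives 1 expected count per Ensembl gene. These estimated counts are partly fractional and unscaled, as read from their values. The labels name the build GRCm38 (mm10) and a SMARTER mRNA kit. The aligner, the counting program and the use of strand are not given in the sources used here. Of the 44678 identifiers, 98.8% are in GENCODE M21, used for symbols, exon lengths and 3′-UTRs.

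Counts were rounded and fitted in R 4.3.3 with edgeR 4.0.16 (TMM factors, filterByExpr at 10 counts per library and 15 in total, quasi-likelihood test, Benjamini-Hochberg adjustment over all tested genes, threshold 0.05). On simulated counts the procedure recovered 62.5% of 200 genes changed by a log2 fold of 1 and 84% of those changed by 2. Alternatives were DESeq2 1.42.0, voom of limma 3.58.1, upper-quartile factors, other filters, a replicate block, a marker covariate and each library left out. Members, lists and alternatives were chosen with earlier results of these data known. Named genes are the 10 members, Irf5 the 3 most abundant genes of each neighbour list and any with an adjusted p-value under 0.05. Outside this rule, Tnip1, Tlr3, Tlr11, Ly6c2, Xcr1, Clec9a and Flt3 were named after their values were seen. Replicates differed by more than counting noise (chi-square per degree of freedom 6.17 to 21.8).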

Additional observations from a re-analysis of the deposited data

How the results depend on the processing

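Over 13 alternatives, 0 of the 10 genes and 0 genes of the neighbour and receptor lists were called, and Myd88, Tirap, Ticam1, Irak1, Irak4, Traf6 and Irf5 kept their direction in each. Over the 10 genes the median log2 fold change was 0.011 with the marker covariate and 0.064 to 0.33 with 1 library left out, lowest without KO replicate 2 and highest without KO replicate 3. With the covariate Ticam2 was at -0.18, Irak2 at -0.012, Irak3 at -0.17 and Slc15a4 at -0.049. With 1 library left out, Ticam2 ran from -0.12 to 0.54 and Slc15a4 from -0.040 to 0.35, below 0 without WT replicate 2 or KO replicate 2 for Ticam2 and without KO replicate 2 for Slc15a4. The cause of these moves was not tested.

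The number of genes called in all, 4, was 58 with DESeq2, 12 without a filter, 9 with the replicate block, 12 with the covariate, and 2 to 94 with 1 library left out, most without KO replicate 3 and fewest without WT replicate 1 or WT replicate 3. The replicate numbers come from titles, same-numbered libraries had correlations of deviations of -0.0028, -0.25 and 0.16, and they were not taken as pairs. The block changed no call of the 10 genes. Depth limits Ticam2 most, with 24 to 70 counts per library.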

Other observations

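Traf6, with 2 matches to the miR-144-3p seed, belongs to 272 tested genes whose longest 3′-UTR holds these 7 letters at 2 or more places. The median log2 fold change of KO over WT was 0.060 in these 272 genes, 0.027 in the 1600 tested genes with at least 1 match and -0.0020 in the 9944 tested genes without one. Of the 272 genes, 64.3% had a log2 fold change above 0, against 49.5% of those without a match. The other 2 seeds had like shares. For miR-144-5p the share was 59.7% of 705 genes with a match and 64.6% of the 48 with 2 or more, against 49.9% without. For miR-451a it was 56.5% of 255 genes with a match, against 50.3% without. None of the 1600 genes had an adjusted p-value under 0.05 in edgeR's test, and 89 (5.56%) had an unadjusted one, against 6.33% of the genes without a match and 22 (8.09%) of the 272 genes. The length of the 3′-UTR was not matched between these sets, and no test of the difference was made.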
